A study of Mus musculus with 6 samples.

Results

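The nuclear genes of oxidative phosphorylation, the mitochondrial process that makes most ATP in respiring cells, were examined in mouse eosinophils 3 h after addition of the cytokine IL-33. They were chosen by gene symbol: every gene whose name begins with Ndufa, Ndufb, Ndufc, Ndufs, Ndufv, Uqcr, Atp5 or any of Cox4 to Cox8, and Sdha, Sdhb, Sdhc and Sdhd. This pattern took 92 of the 23420 genes in the table. Of these, 36 encode subunits of complex I, 4 of complex II, 8 of complex III, 20 of complex IV and 15 of complex V. The remaining 9 are caught by name but are not structural subunits: 7 Ndufaf genes for complex I assembly factors, Atp5s and Atp5sl. Ndufa4 and Ndufa4l2 were counted with complex IV, where the Ndufa4 protein is now placed. Cox7a2l, a factor of supercomplexes between complexes III and IV, was counted with complex IV as well.

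The complexes sit in the inner mitochondrial membrane. Complex I oxidizes NADH and complex II oxidizes succinate, and both hand electrons to ubiquinone. Complex III passes the electrons on to cytochrome c and complex IV passes them to oxygen. Complexes I, III and IV pump protons, and complex V, the ATP synthase, uses the proton gradient to make ATP. Complex II is wholly nuclear in origin, while each of the other complexes also holds subunits made from mitochondrial DNA, which were not analysed here.

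Eosinophils are granulocytes that depend on IL-5, and IL-33 is an alarmin that reaches them through the ST2 receptor. Wild-type (WT) mouse marrow was grown in stem cell factor and FLT3 ligand, each at 100 ng/mL, and from day 4 in IL-5 at 20 ng/mL. On day 14, once dead cells were removed, cells were kept for 3 h with 2.5 ng/mL of IL-33 (3 libraries) or with the vehicle PBS (3 libraries). Total RNA depleted of ribosomal RNA was sequenced from directional libraries. Whether each library is its own mouse or culture is not stated, so that the p-values reflect the spread among these libraries only, which may be technical. RNA was taken from the whole culture, so fewer cells of a type and less RNA per cell cannot be told apart.

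The recovered reads numbered 9362650 to 10785521 in the IL-33 libraries and 8218303 to 8981930 in the PBS libraries. Rn45s, which encodes the precursor of ribosomal RNA, took 24.3% of the reads in IL-33 replicate 1, 59.6% in replicate 2 and 54.8% in replicate 3, against 13.7% to 24.8% in the PBS libraries. Summed normalized counts of 11 eosinophil markers were 19858 to 32992 with IL-33 and 53374 to 64098 with PBS, and 9 of the 11 were called lower. Those of 9 macrophage and monocyte markers were 24371 to 31128 with IL-33 and 8935 to 11422 with PBS. Only 4 of these 9 passed the filter and were tested, and 2 of the 4 were called higher. Those of 11 neutrophil markers were 2307 to 3029 with IL-33 and 2912 to 3588 with PBS, with 4 of 10 called lower. Mast cell and basophil markers summed to 71.0 to 100.0 with IL-33 and 97.1 to 213 with PBS, with 2 of 5 tested called lower, and Mcpt4 was at 0 in all 6 libraries. Lymphoid markers summed to 45.8 to 76.4 with IL-33 and 66.2 to 78.4 with PBS, and neither of the 2 tested was called. Dendritic cell markers summed to 423 to 656 with IL-33 and 287 to 369.7 with PBS, and the 1 tested was called higher. Erythroid and megakaryocyte markers summed to 1984 to 2959 with IL-33 and 2194 to 2955 with PBS, with 1 of 3 tested called higher. Ncr1, Hba-a1 and Hbb-b1 were at 0 in all 6 libraries. Of all genes tested, 17.4% were called higher and 14.4% lower. The part of these other cell types in the changes described here was not tested.

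The genes of oxidative phosphorylation were called about as often as genes in general after IL-33, and no complex moved as a unit. Of the 80 genes with a normalized count of at least 10 in at least 3 libraries, 9 were higher and 13 lower after IL-33, and 58 did not pass the test (limma, Benjamini-Hochberg adjusted p under 0.05 over the 10544 genes tested). That is 27.5% called, against a background of 31.9% of all genes tested, in which 17.4% were called higher and 14.4% lower. The 13 lower genes include Atp5s, which passed the filter only through its PBS values, so that it had to differ to be tested. The 3 IL-33 values lay above the 3 PBS values for 15 of the 80 genes and below them for 21, together 45.0%, against 50.2% of all genes, of which 25.5% lay above and 24.7% below. The median log2 fold change was −0.01, against −0.03 over all genes, and the median absolute log2 fold change was 0.54, against 0.57. These shares and medians lie near those of all genes. Single genes ran from −2.39 for Cox7b to 1.62 for Cox6a1. On the recovered reads, edgeR called 9 genes higher and 9 lower, and DESeq2 called 13 and 12.

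Which genes passed depended on single libraries, on scaling and on GC content. Without IL-33 replicate 1, 21 genes of oxidative phosphorylation were called higher and 24 lower. Without IL-33 replicate 2, Cox6a1 and Ndufb9 were higher and Atp5s, Ndufa6 and Ndufa9 lower, of which Atp5s could be tested only if it was lower. With IL-33 replicate 3 left out, 7 genes were called each way. Without PBS replicate 1, 4 genes were higher (Cox6a1, Cox6b1, Ndufa2 and Ndufb9) and 5 lower (Atp5j2, Ndufa6, Ndufa8, Ndufa9 and Sdha). Without PBS replicate 2 or PBS replicate 3, Cox6a1 alone was higher and 0 genes were lower (limma), with 10 higher and 13 lower at an unadjusted p under 0.05 in the first of these fits and 9 and 12 in the second. The 22 called genes kept the sign of their change in each of these fits that tested them. For Atp5s, which only 3 of these fits tested, the sign was fixed by the filter. Over all genes the calls shifted too, from 1837 higher and 1522 lower with all 6 libraries. Leaving out IL-33 replicates 1, 2 and 3 in turn gave 2910 and 2950, 874 and 749, and 1396 and 1196. Leaving out PBS replicates 1, 2 and 3 in turn gave 1108 and 595, 782 and 357, and 695 and 318. Scaling to equal totals lowered the median of all genes to −1.06 and that of these genes to −1.05, and then called 0 higher (0 also at an unadjusted p under 0.05) and 41 lower. Scaling to equal totals without Rn45s gave medians of −0.45 and −0.43, with 4 higher and 27 lower. After removal of the trend of each library with transcript length and GC content, the counts were 7 higher and 17 lower. Over all genes they were then 1858 and 1779.

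**Figure D1:**
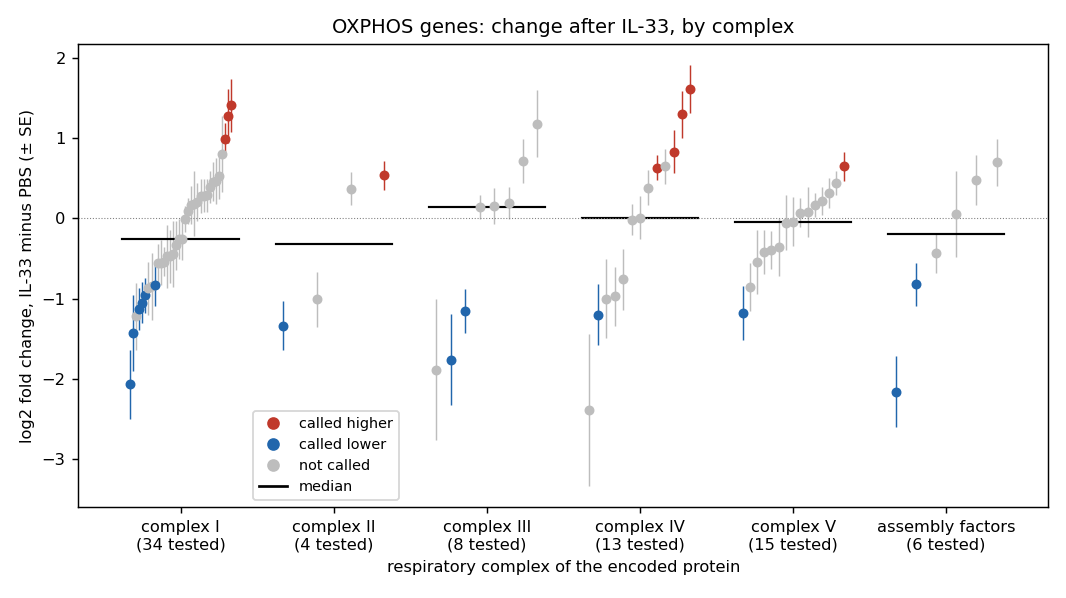
Log2 fold change (IL-33 minus PBS, ± SE, 3 libraries a group) of the 80 tested genes, grouped on the x axis by complex, with red for called higher, blue for called lower, grey for not called and a black line for the median. In every complex some genes lie above 0 and others below it, and the medians run from −0.32 for complex II to 0.15 for complex III.

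In the called genes, IL-33 replicate 1 stood nearer to the PBS libraries than the other IL-33 libraries did. For 20 of the 22 called genes its value was the closest of the 3 to the PBS mean. The median absolute log2 difference of the 22 genes from the PBS mean was 0.63 in IL-33 replicate 1, 1.41 in replicate 2 and 1.35 in replicate 3. These genes were called on the same values. Some genes not called went the other way, such as Ndufaf7 (log2 differences of 1.11, 0.12 and 0.21) and Atp5e (0.52, 0.36 and 0.07). The Rn45s share of replicate 1 (24.3%) was within the PBS range. Set alone against the 3 PBS libraries, with the spread taken from PBS only, it gave 9 genes called higher and 8 lower, of which 5 and 8 were among those called with all libraries. With the Rn45s share of each library as a covariate, 2 genes were called higher (Cox6a1 and Ndufaf7) and 0 lower (limma), with 7 and 7 at an unadjusted p under 0.05. Over all genes that covariate left 914 called higher and 642 lower.

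**Figure D2:**
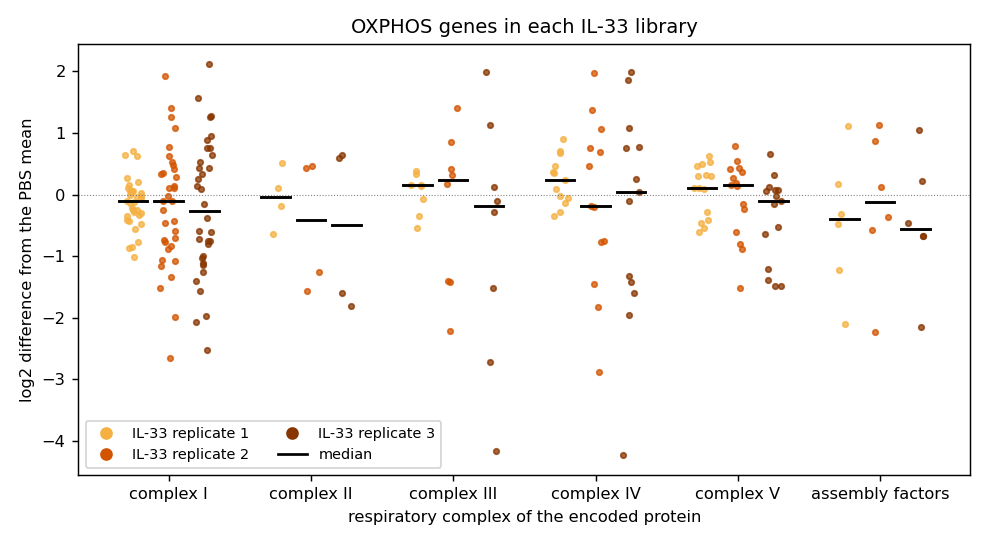
Log2 difference of each tested gene from the mean of the 3 PBS libraries, in IL-33 replicates 1, 2 and 3 (light to dark), by complex on the x axis, with a black line at each median. The medians over all 80 genes were −0.01, 0.04 and −0.13 in replicates 1, 2 and 3, and in every complex points lie on both sides of 0 in each library.

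The regions around the RefSeq start of 4 called genes are shown because they carry letters of the NRF1 or ETS motif, factors known to act at nuclear genes of respiration. Cox6a1 and Sdhb were higher after IL-33, and Sdha and Ndufa8 were lower. Each sequence runs 5′ to 3′ on the gene's own strand, from 250 bases before the RefSeq start to 30 bases from it (GRCm38.p6), and capitals mark NRF1 or ETS letters. Cox6a1 lies at chr5:115348929-115349208 on the minus strand, Sdhb at chr4:140961021-140961300 on the plus strand, Sdha at chr13:74350211-74350490 on the minus strand and Ndufa8 at chr2:36049309-36049588 on the minus strand.
Cox6a1: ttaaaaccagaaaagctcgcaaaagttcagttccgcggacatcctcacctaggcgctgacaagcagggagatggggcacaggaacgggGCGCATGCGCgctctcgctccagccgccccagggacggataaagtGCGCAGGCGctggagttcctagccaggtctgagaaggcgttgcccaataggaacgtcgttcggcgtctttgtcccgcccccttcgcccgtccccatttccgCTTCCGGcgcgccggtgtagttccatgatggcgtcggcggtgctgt
Sdhb: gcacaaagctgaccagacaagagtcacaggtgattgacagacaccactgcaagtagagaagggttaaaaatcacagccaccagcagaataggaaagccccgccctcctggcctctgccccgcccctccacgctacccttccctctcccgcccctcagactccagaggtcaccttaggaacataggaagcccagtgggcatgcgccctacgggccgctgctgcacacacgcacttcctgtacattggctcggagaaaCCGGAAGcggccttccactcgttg
Sdha: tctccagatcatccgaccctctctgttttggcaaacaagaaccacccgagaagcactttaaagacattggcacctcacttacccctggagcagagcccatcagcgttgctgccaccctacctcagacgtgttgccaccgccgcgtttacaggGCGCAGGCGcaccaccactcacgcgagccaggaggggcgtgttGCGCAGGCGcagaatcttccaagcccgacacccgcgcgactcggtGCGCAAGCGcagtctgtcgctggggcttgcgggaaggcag
Ndufa8: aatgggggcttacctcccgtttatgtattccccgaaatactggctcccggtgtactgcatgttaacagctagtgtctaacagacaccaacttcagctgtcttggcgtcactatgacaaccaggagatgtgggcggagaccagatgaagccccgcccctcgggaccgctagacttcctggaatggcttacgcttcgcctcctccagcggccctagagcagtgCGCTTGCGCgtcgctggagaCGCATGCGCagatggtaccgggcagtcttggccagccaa
Cox6a1 holds 3 NRF1 matches, a pair of which overlap, and 1 ETS match. Sdhb holds 1 ETS match, which lies after the start, at bases 7 to 13 from it. Sdha holds 3 NRF1 matches and Ndufa8 2 NRF1 matches.

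Over the 300 bases of each RefSeq window (250 before and 50 from the start), both strands were searched for GCGCANGCG (NRF1), CCGGAAG (ETS) and AANATGGCG (YY1), letters that do not contain one another. Of the 76 genes of oxidative phosphorylation with a window, some of them not tested, 22 held the NRF1 letters (28.9%). The shares were 16.2% of 7931 tested genes and 7.03% of all 27025 genes with a window. The ETS letters were in 17 of the 76 (22.4%), against 22.0% of tested genes and 9.93% of all genes with a window. The YY1 letters were in 11 of the 76 (14.5%), against 6.75% of tested genes and 2.76% of all genes with a window. Of the 6 genes called higher with a window, 1 held NRF1 letters, 4 ETS letters (Cox6a1, Cox6b1, Ndufb6 and Sdhb) and 0 YY1 letters. Of the 12 called lower, 4 held NRF1 letters (Ndufa6, Ndufa8, Ndufs6 and Sdha), 4 YY1 letters (Atp5j2, Atp5sl, Ndufa9 and Ndufs6) and 0 ETS letters. A match is a description of the letters and not a binding site.

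Complex I, the NADH dehydrogenase, had 3 genes higher and 6 lower of 34 tested, with a median log2 fold change of −0.26. That is 26.5% called, against 31.9% of all genes tested. The NADH-binding arm, which takes electrons from NADH, had 1 higher and 3 lower of 9 tested, the ubiquinone-binding arm 1 lower of 6, and the membrane arm, which pumps protons, 2 higher and 2 lower of 19. No gene of the ubiquinone-binding arm was higher (limma, with 0 at an unadjusted p under 0.05, 0 with edgeR and 0 with DESeq2). Summed normalized counts of the 36 genes were 4458, 5369 and 5950.4 with IL-33, against 4363, 4643 and 4433 with PBS, and the groups overlapped. With IL-33 replicate 1 left out, complex I had 9 genes higher and 10 lower, and with IL-33 replicate 2 left out it had 1 and 2. Over all genes these 2 fits gave 2910 and 2950, and 874 and 749. Leaving out IL-33 replicate 3 gave 3 and 4, and leaving out PBS replicate 1 gave 2 and 3. Without PBS replicate 2 or without PBS replicate 3 it had 0 and 0 (limma), with 3 and 6 at an unadjusted p under 0.05 in each.

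Among the core subunits that carry electrons, Ndufv2 was the called gene in the NADH-binding arm. Ndufv1, which binds NADH and the flavin, had normalized counts of 290.4, 369 and 475 with IL-33 (replicates 1, 2 and 3, the order used throughout) and 307, 300.5 and 303 with PBS (log2 fold change 0.29, SE 0.21, adjusted p = 0.309, limma). IL-33 replicate 1 lay below the PBS libraries and replicates 2 and 3 above them. Ndufs1, the largest iron-sulfur subunit, had 470.2, 497 and 414 with IL-33 and 445, 466 and 472 with PBS (log2 fold change −0.01, SE 0.16, adjusted p = 0.981, limma), and the groups overlapped. Ndufv2, an iron-sulfur subunit beside Ndufv1, fell to 75.5, 21.5 and 20.3 in the IL-33 libraries, against 82.3, 85.9 and 97.8 in the PBS libraries (log2 fold change −1.43, SE 0.47, adjusted p = 0.0486, limma). IL-33 replicate 1 was just below the PBS values and replicates 2 and 3 were far below. Replicate 1 of IL-33, taken alone, gave a log2 fold change of −0.22, and neither edgeR nor DESeq2 called Ndufv2.

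Accessory subunits of the NADH-binding arm moved in opposite directions. Ndufa2, a small accessory subunit with a thioredoxin-like fold, was at 474, 775 and 1273 with IL-33 and 346, 268 and 266 with PBS, and its IL-33 mean was 2.66 times the PBS mean on the log2(value + 1) scale (log2 fold change 1.41, SE 0.33, adjusted p = 0.0163, limma). All 3 IL-33 values lay above the PBS values, with IL-33 replicate 3 the highest, and 11.5% of the exonic bases of Ndufa2 overlap another gene. Ndufa6 (chromosome 15, 82350140 to 82354322 on GRCm38, the build of all coordinates here), a subunit of the LYR family that docks the acyl carrier protein, was at 40.5, 12.3 and 13.6 with IL-33 and 72.2, 86.6 and 91.6 with PBS (log2 fold change −2.07, SE 0.43, adjusted p = 0.0108, limma). Replicates 2 and 3 of IL-33 were the low ones, at 8 reads each. Ndufs6, which binds zinc, was at 25.2, 20.0 and 20.3 with IL-33 and 42.7, 51.7 and 44.0 with PBS (log2 fold change −1.05, SE 0.26, adjusted p = 0.0184, limma). The 3 IL-33 libraries were close together and all below PBS. Ndufs4, an assembly-critical subunit that can be phosphorylated, was at 44.1, 21.5 and 13.6 with IL-33 and 44.3, 61.1 and 65.0 with PBS and did not pass (log2 fold change −1.22, SE 0.42, adjusted p = 0.0555, limma).

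In the other arms, Ndufa9 (chromosome 6, 126821721 to 126849136), which joins the ubiquinone-binding arm to the membrane arm, was at 73.7, 70.7 and 52.5 with IL-33 and 119, 123 and 140.5 with PBS (log2 fold change −0.96, SE 0.22, adjusted p = 0.0146, limma). Its call was lost without PBS replicate 2 or 3. Of the membrane arm, Ndufb9, a LYR protein (chromosome 15, 58933756 to 58939488), was at 503, 692 and 778 with IL-33 and 352, 298 and 332 with PBS (log2 fold change 0.99, SE 0.20, adjusted p = 0.0102, limma), and 19.5% of its exonic bases overlap another gene. Its groups did not overlap, and the log2 fold change was −0.054 after scaling to equal totals. Of its 50-base stretches, 23.4% occur in transcripts of other genes. Ndufb6 was at 77.3, 191 and 120.3 with IL-33 and 51.3, 58.9 and 39.8 with PBS (log2 fold change 1.28, SE 0.34, adjusted p = 0.0251, limma), and IL-33 replicate 2 was the highest. As 39.0% of its exonic bases overlap another gene and 34.1% of its 50-base stretches occur in transcripts of other genes, its value is uncertain. Ndufa8, which faces the intermembrane space, was at 62.9, 40.0 and 57.6 with IL-33 and 94.7, 121 and 136 with PBS (log2 fold change −1.13, SE 0.26, adjusted p = 0.0145, limma). Ndufb8 was at 98.0, 56.9 and 55.9 with IL-33 and 110.3, 129.5 and 125 with PBS (log2 fold change −0.83, SE 0.26, adjusted p = 0.0442, limma), and edgeR did not call it. Both had all IL-33 values below all PBS values.

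Among the 25 genes of complex I that were tested and not called, log2 fold changes ran from −1.22 for Ndufs4 to 0.80 for Ndufa5. Of the 9 called genes, Ndufa6, Ndufa9 and Ndufb9 were called in 4 of the 6 fits that left out 1 library. Ndufa2 and Ndufa8 were called in 3 of them, Ndufb6 and Ndufs6 in 2, and Ndufv2 and Ndufb8 in 1. Ndufa12 and Ndufs5 lay below the filter and were not tested, with Ndufs5 at 0 reads in 5 libraries and a single read in PBS replicate 3. Of the Ndufs5 transcript, 31.1% of the 50-base stretches also occur in transcripts of other genes, and of Ndufa12 26.2%.

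**Figure D3:**
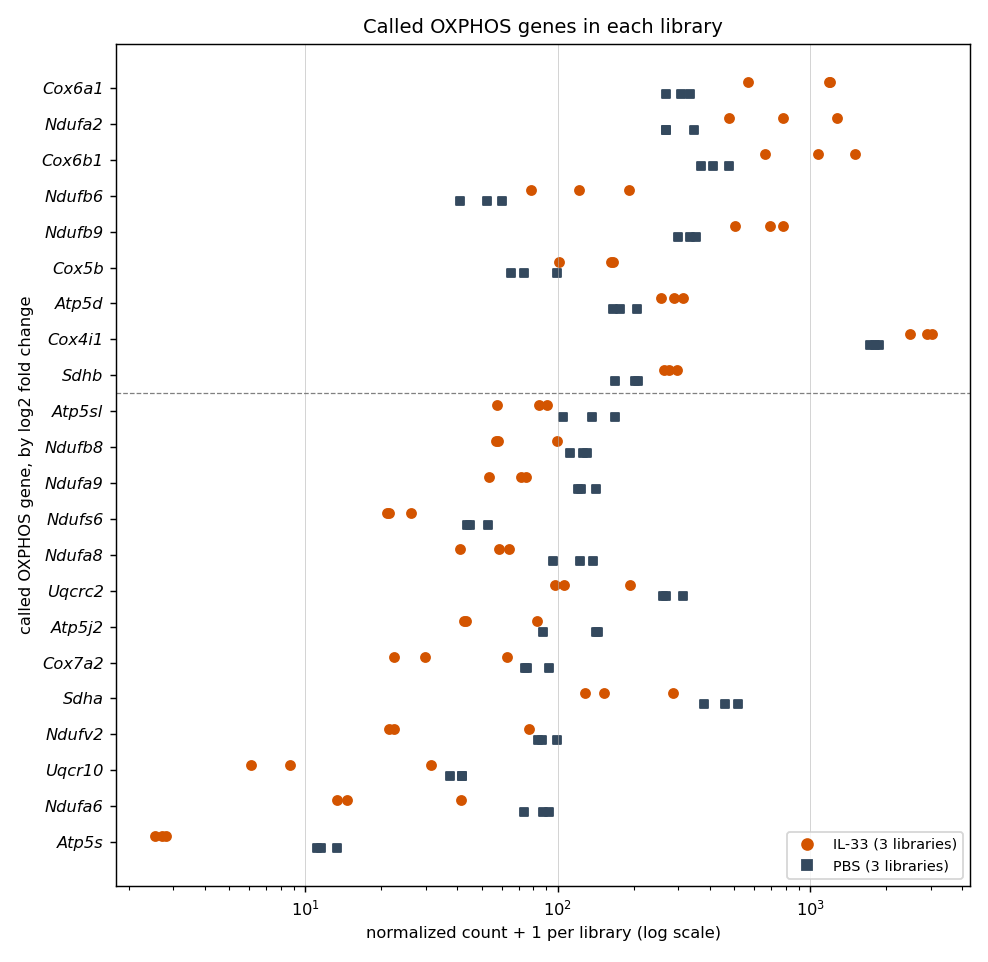
Normalized count + 1 (log scale, x axis) of the 22 called genes in each IL-33 library (orange circles) and each PBS library (dark squares), ordered by log2 fold change from Cox6a1 at the top to Atp5s at the bottom, with a dashed line between higher and lower genes. The groups do not overlap in any of the 22 genes, but these were called on the same values, so this adds no support. Of all genes tested, 50.2% had no overlap. In many of the 22, 1 IL-33 point, replicate 1, sits nearest to the PBS points.

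Complex II, succinate dehydrogenase, had its catalytic subunit lower and its iron-sulfur subunit higher. Sdha (chromosome 13, 74322254 to 74350280), the flavoprotein that oxidizes succinate, was at 284, 151 and 127 with IL-33 and 378, 456 and 514 with PBS, a mean of 187 ± 84.7 against 449 ± 68.0 (SD, n = 3 each; log2 fold change −1.34, SE 0.30, adjusted p = 0.0141, limma). All IL-33 values were below the PBS values, and IL-33 replicate 1 was the highest of the 3. Sdhb (chromosome 4, 140961203 to 140979193), the iron-sulfur subunit that takes the electrons from Sdha, was at 273, 261 and 297 with IL-33 and 200.4, 167 and 207 with PBS, a mean of 277 ± 17.9 against 191 ± 21.6 (SD, n = 3 each; log2 fold change 0.54, SE 0.18, adjusted p = 0.0499, limma). Its groups did not overlap and its adjusted p was just under the threshold. The membrane anchors Sdhc and Sdhd were not called. Sdhc was at 168, 211 and 237 with IL-33 and 144, 181 and 147 with PBS (log2 fold change 0.37, SE 0.21, adjusted p = 0.192, limma), and the groups overlapped. Sdhd was at 136, 64.6 and 50.8 with IL-33 and 139.8, 156 and 171 with PBS (log2 fold change −1.01, SE 0.35, adjusted p = 0.0559, limma), without overlap.

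The 4 genes had a median log2 fold change of −0.32. The share called was 50.0%, against 31.9% of all genes tested, and rests on 2 genes. Their summed normalized counts were 861, 687 and 712 with IL-33, against 863, 959.7 and 1039 with PBS, without overlap but with IL-33 replicate 1 next to PBS replicate 1. Sdha was called in 3 of the 6 fits that left out 1 library, with log2 fold changes of −1.68 to −1.10 over the 6. Sdhb was called in 1 of them, without IL-33 replicate 1, with 0.44 to 0.60 over the 6. Without replicate 2 of IL-33, or replicate 2 or 3 of PBS, complex II had 0 genes higher and 0 lower (limma; 1 and 1, 0 and 2, and 1 and 1 at an unadjusted p under 0.05). Sdhb was not called by edgeR, and its log2 fold change was −0.50 after scaling to equal totals and 0.47 (adjusted p = 0.0509, limma) with the GC and length trend removed.

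Complex III, the cytochrome bc1 complex, had 2 genes lower and 0 higher of 8 tested (limma; 2 higher at an unadjusted p under 0.05, 1 with edgeR and 2 with DESeq2), with a median of 0.15. That is 25.0% called, against 31.9% of all genes tested. Uqcrc2 (chromosome 7, 120635176 to 120659524), a large core subunit, was at 192, 105 and 96.6 with IL-33 and 261, 266 and 311 with PBS (log2 fold change −1.15, SE 0.28, adjusted p = 0.0171, limma), and 19.7% of its exonic bases overlap another gene. Its IL-33 values were all below PBS, and 24.8% of its 50-base stretches occur in transcripts of other genes. Its partner core subunit Uqcrc1 was at 529, 535 and 520.3 with IL-33 and 463, 486 and 485 with PBS (log2 fold change 0.14, SE 0.15, adjusted p = 0.474, limma), so that the IL-33 values lay just above the PBS values without passing the test. Uqcrfs1, the Rieske iron-sulfur protein, was at 268, 257 and 192 with IL-33 and 212, 217 and 191 with PBS (log2 fold change 0.20, SE 0.20, adjusted p = 0.461, limma), and the groups overlapped. Uqcr10, a small subunit beside cytochrome c1, was at 30.6, 7.69 and 5.08 with IL-33 and 36.5, 40.7 and 40.5 with PBS (log2 fold change −1.76, SE 0.57, adjusted p = 0.0466, limma). IL-33 replicate 1 was near PBS, and replicates 2 and 3 held 5 and 3 reads.

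The small subunits of complex III spread the widest. Uqcrb, which lies at the ubiquinone site, was at 45.0, 16.9 and 1.69 with IL-33 and 46.6, 46.6 and 48.2 with PBS and was not called (log2 fold change −1.88, SE 0.87, adjusted p = 0.128, limma), and 43.4% of its 50-base stretches occur in transcripts of other genes. IL-33 replicate 1 was close to PBS and replicate 3 held a single read. Uqcr11 was at 71.9, 171 and 256 with IL-33 and 62.9, 69.8 and 60.1 with PBS (log2 fold change 1.18, SE 0.42, adjusted p = 0.0603, limma), without overlap. Uqcrq was at 138, 226 and 273 with IL-33 and 116, 146 and 114 with PBS (log2 fold change 0.71, SE 0.27, adjusted p = 0.0785, limma), and the groups overlapped. The hinge protein gene Uqcrh had a log2 fold change of 0.15 (SE 0.22). Uqcr10 was called in 1 of the 6 fits that left out 1 library, with log2 fold changes of −2.47 to −1.28 over the 6, and by neither edgeR nor DESeq2. Uqcrc2 was called in 2 of them. Without IL-33 replicate 1, 2 genes of complex III were higher and 3 lower, and with IL-33 replicate 3 left out 1 was lower. Without IL-33 replicate 2, or without PBS replicate 1, 2 or 3, it had 0 higher and 0 lower (limma; 0 to 2 higher and 1 to 2 lower at an unadjusted p under 0.05). The summed normalized counts were 1947, 2030.1 and 1786 with IL-33, against 1779, 1850.2 and 1708 with PBS, with overlap.

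Complex IV, cytochrome c oxidase, had 4 genes higher and 1 lower of 13 tested, with a median of 0.01. The share called was 38.5%, against 31.9% of all genes tested. Cox6a1 (chromosome 5, 115345642 to 115348981), the broadly expressed form of a subunit near the dimer interface, was at 563, 1183 and 1191 with IL-33 and 307, 333 and 268 with PBS. That is 3.07 times higher on the log2(value + 1) scale (log2 fold change 1.62, SE 0.30, adjusted p = 0.00662, limma). All IL-33 values were above PBS, with replicate 1 the lowest, and Cox6a1 was called in each of the 6 fits that left out 1 library (1.43 to 1.97). Cox6b1 (chromosome 7, 30616861 to 30626151), which faces the intermembrane space, was at 659.9, 1072 and 1503 with IL-33 and 474, 368 and 409 with PBS (log2 fold change 1.30, SE 0.29, adjusted p = 0.0132, limma). Cox4i1 (chromosome 8, 120668222 to 120674207), a subunit through which ATP slows the enzyme, was at 2472, 2908 and 3020.1 with IL-33 and 1804, 1876 and 1715 with PBS, a mean of 2800.0 ± 289.8 against 1798 ± 80.8 (SD, n = 3 each; log2 fold change 0.63, SE 0.15, adjusted p = 0.0171, limma). Both genes had all IL-33 values above PBS, and Cox6b1 was called in 3 of the 6 fits that left out 1 library. Cox5b, which binds zinc, was at 99.8, 161 and 164 with IL-33 and 64.5, 98.2 and 72.7 with PBS (log2 fold change 0.83, SE 0.27, adjusted p = 0.048, limma), also without overlap. Cox5b was called in 1 of the 6 fits, and its log2 fold change was −0.20 after scaling to equal totals. Of the 50-base stretches of Cox5b, Cox4i1 and Cox6a1, 25.9%, 14.7% and 12.3% occur in transcripts of other genes.

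The lower gene of complex IV was Cox7a2, the broadly expressed form of a small membrane subunit, at 62.0, 21.5 and 28.8 with IL-33 and 73.0, 74.2 and 90.9 with PBS (log2 fold change −1.20, SE 0.38, adjusted p = 0.0432, limma). Its IL-33 replicate 1 lay close below PBS, it was called in 1 of the 6 fits that left out 1 library (−1.63 to −0.88), and edgeR did not call it. Its relative Cox7a2l, a factor of supercomplexes between complexes III and IV, was at 423, 564 and 342 with IL-33 and 377, 305 and 321 with PBS (log2 fold change 0.38, SE 0.22, adjusted p = 0.205, limma). Cox5a, which partners Cox4i1 in the assembled enzyme, was at 255, 140.0 and 78.0 with IL-33 and 238, 247 and 231 with PBS (log2 fold change −0.76, SE 0.38, adjusted p = 0.153, limma), and the groups overlapped through replicate 1. Cox8a was at 146, 123 and 153 with IL-33 and 93.2, 72.0 and 103 with PBS (log2 fold change 0.65, SE 0.22, adjusted p = 0.0508, limma), without overlap and just outside the threshold. Ndufa4 was at 70.1, 27.7 and 30.5 with IL-33 and 64.5, 84.4 and 85.3 with PBS (log2 fold change −0.97, SE 0.37, adjusted p = 0.0737, limma). Cox7b was at 17.1, 1.54 and 0 with IL-33 and 17.9, 13.1 and 23.8 with PBS (log2 fold change −2.39, SE 0.95, adjusted p = 0.0856, limma), replicate 1 lying inside the PBS range and the others at 1 and 0 reads. Cox6c was at 121, 87.7 and 37.3 with IL-33 and 83.9, 236 and 164 with PBS and was not called either (adjusted p = 0.148, limma). Cox7c had a log2 fold change of −0.01 (SE 0.19).

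Summed over its 20 genes, complex IV had normalized counts of 5073, 6435 and 6718 with IL-33, against 3766, 3874 and 3647 with PBS. The groups did not overlap. These sums are carried by a few abundant genes, since Cox4i1 alone had a mean of 2800.0 ± 289.8 with IL-33 and 1798 ± 80.8 with PBS. Cox4i1 was lower by 0.41 on the log2 scale after scaling to equal totals, had a log2 fold change of 0.39 (adjusted p = 0.0542, limma) with the GC and length trend removed, and was called in 2 of the 6 fits that left out 1 library. Without IL-33 replicate 1 complex IV had 5 genes higher and 5 lower, without IL-33 replicate 3 it had 3 and 0, and without PBS replicate 1 it had 2 and 0 (limma; 1 and 3 lower at an unadjusted p under 0.05). Without PBS replicate 2, PBS replicate 3 or IL-33 replicate 2 it had 1 higher, Cox6a1, and 0 lower (limma; 1 lower at an unadjusted p under 0.05 in each).

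Isoforms that are known from heart, muscle, lung, testis or hypoxic cells were nearly silent. Cox7b2 and Cox8c were at 0 in all 6 libraries. Cox4i2, the lung form of Cox4i1, had 0.899, 0 and 1.69 with IL-33 and 0, 0 and 0.699 with PBS. Cox6a2, the heart and muscle form of Cox6a1, had 0, 0 and 0 with IL-33 and 1.55, 0 and 0 with PBS. Cox6b2, the testis form of Cox6b1, had 0.899, 3.08 and 3.39 with IL-33 and 5.44, 2.91 and 2.80 with PBS. Cox8b had 0, 0 and 8.47 with IL-33 and 1.55, 2.18 and 2.10 with PBS, and the hypoxia-inducible Ndufa4l2 had 0.899, 1.54 and 0 with IL-33 and 0, 1.46 and 0.699 with PBS. None of these 7 passed the filter, so they were not tested. The exception was Cox7a1, the heart and muscle form of Cox7a2, at 27.9, 24.6 and 33.9 with IL-33 and 31.8, 27.6 and 25.9 with PBS (log2 fold change 0.01, SE 0.27, adjusted p = 0.98, limma). Its groups overlapped, with IL-33 and PBS means of 28.8 ± 4.71 and 28.4 ± 3.07 (SD, n = 3 each).

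Complex V, the ATP synthase, had 1 gene higher and 1 lower of 15 tested, with a median of −0.04. That is 13.3% called, against 31.9% of all genes tested. Of the F1 part, which makes ATP, Atp5d (chromosome 10, 80138632 to 80145818), the delta subunit of the central stalk, was at 254, 312 and 286 with IL-33 and 204, 164 and 175 with PBS (log2 fold change 0.65, SE 0.18, adjusted p = 0.0302, limma). All IL-33 values were above PBS. The catalytic subunits were abundant and not called: Atp5b, the beta subunit, was at 2223, 1962 and 1858 with IL-33 and 1917, 1743 and 1707 with PBS (log2 fold change 0.17, SE 0.15, adjusted p = 0.407, limma). Atp5a1, the alpha subunit, was at 1685, 2076 and 1708 with IL-33 and 1602, 1765 and 1348 with PBS (log2 fold change 0.22, SE 0.17, adjusted p = 0.351, limma). Both pairs of groups overlapped. The gamma and epsilon genes, Atp5c1 and Atp5e, had log2 fold changes of −0.39 (SE 0.24) and 0.32 (SE 0.19) and were not called.

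Of the Fo part and the stalk, Atp5j2, the f subunit, was at 81.8, 41.5 and 42.4 with IL-33 and 86.2, 140.4 and 143 with PBS (log2 fold change −1.18, SE 0.33, adjusted p = 0.0303, limma). IL-33 replicate 1 lay just below the lowest PBS value. The 3 genes that encode the same c subunit of the rotor were not called. Atp5g3 was at 257, 188 and 89.8 with IL-33 and 209.7, 179 and 242 with PBS (log2 fold change −0.35, SE 0.36, adjusted p = 0.468, limma), Atp5g2 had a log2 fold change of −0.04 and Atp5g1 of −0.05. The groups of all 3 overlapped, and 87.4% of the 50-base stretches of Atp5g2 occur in transcripts of other genes. Atp5h, the d subunit, was at 744, 792 and 678 with IL-33 and 561, 553 and 514 with PBS (log2 fold change 0.44, SE 0.15, adjusted p = 0.0593, limma). Atp5j, the coupling factor 6 gene, was at 70.1, 46.1 and 32.2 with IL-33 and 86.2, 90.2 and 81.8 with PBS (log2 fold change −0.85, SE 0.30, adjusted p = 0.0586, limma). Neither passed, although their groups did not overlap. Atp5o, the OSCP gene, was at 57.5, 46.1 and 18.6 with IL-33 and 49.7, 60.4 and 53.1 with PBS (log2 fold change −0.55, SE 0.40, adjusted p = 0.316, limma). Atp5k, Atp5f1 and Atp5l, for the e, b and g subunits, had log2 fold changes of −0.42, 0.07 and 0.08 with overlapping groups. Of their 50-base stretches, 1.2%, 38.7% and 84.8% occur in transcripts of other genes.

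The summed normalized counts of complex V were 6526, 6630.0 and 5689 with IL-33, against 5736, 5824 and 5292 with PBS, with overlap. Atp5d was called in 2 of the 6 fits that left out 1 library (0.58 to 0.74), Atp5j2 in 2 (−1.50 to −1.02). Atp5d had a log2 fold change of −0.39 after scaling to equal totals and of 0.23 (adjusted p = 0.353, limma) with the GC and length trend removed. Without IL-33 replicate 1 complex V had 2 genes higher and 2 lower, without IL-33 replicate 3 Atp5d alone was higher, and without PBS replicate 1 Atp5j2 alone was lower. With replicate 2 of IL-33, or replicate 2 or 3 of PBS, left out it had 0 and 0 (limma; 1 higher and 1 to 2 lower at an unadjusted p under 0.05).

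The 9 genes caught by name but outside the complexes included 2 lower and 0 higher of 6 tested (limma; 1 higher at an unadjusted p under 0.05, 0 with edgeR and 0 with DESeq2). The share called was 33.3%, against 31.9% of all genes tested. Atp5s, also called factor B of the ATP synthase, was at 1.80, 1.54 and 1.69 with IL-33 and 10.1, 12.4 and 10.5 with PBS (log2 fold change −2.16, SE 0.44, adjusted p = 0.0101, limma). The IL-33 values are 2, 1 and 1 reads, and the gene passed the filter only through its PBS values, so that it had to differ to be tested. Atp5sl, known to help assemble the far membrane arm of complex I, was at 56.6, 89.2 and 83.0 with IL-33 and 104, 136 and 167 with PBS (log2 fold change −0.82, SE 0.27, adjusted p = 0.0466, limma). Its groups did not overlap, and it was called in 1 of the 6 fits that left out 1 library. Of the complex I assembly factors, Ndufaf1 (0.70, SE 0.30, adjusted p = 0.101, limma), Ndufaf7 (0.48, SE 0.31, adjusted p = 0.253), Ndufaf5 (0.05, SE 0.54, adjusted p = 0.949) and Ndufaf3 (−0.43, SE 0.24, adjusted p = 0.198) were not called, the values being log2 fold changes. Ndufaf2, Ndufaf4 and Ndufaf6 were not tested.

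Levels per kb of transcript place the members of each complex on 1 scale. In complex I, Ndufa2 had the highest level in both groups, at 1469.5 ± 705 normalized counts per kb with IL-33 and 513 ± 80.1 with PBS (SD, n = 3 each). Ndufa6 ranked 21 of 36 with IL-33, at 57.9 ± 41.6, and 7 of 36 with PBS, at 218 ± 26.3. Ndufb6 ranked 9 with IL-33 and 22 with PBS. In complex II the order with IL-33 was Sdhb (243 ± 15.7), Sdhc (103 ± 17.5), Sdhd (68.0 ± 37.0) and Sdha (64.6 ± 29.2). With PBS it was Sdhb (167 ± 18.9), Sdha (155 ± 23.4), Sdhd (126 ± 12.8) and Sdhc (79.1 ± 10.2). Sdhb stood apart from the others beyond the SDs with IL-33, where the SDs of Sdhc, Sdhd and Sdha overlapped. With PBS, the SDs of Sdhb and Sdha and those of Sdha and Sdhd overlapped, and Sdhc lay below. The top of complex IV with IL-33 was Cox4i1 (3709 ± 384), Cox6b1 (2219 ± 868) and Cox6a1 (1714 ± 631), and with PBS these genes were at 2382 ± 107, 858 ± 110.4 and 529.9 ± 57.8. In complex V with IL-33, Atp5h (1149 ± 89.2) led Atp5b (1051 ± 98.1), and with PBS Atp5b (934 ± 58.7) led Atp5h (845 ± 39.7), in both cases within their SDs. Transcript lengths are medians over the annotated basic transcripts, and 47.9% of the 50-base stretches of Atp5h occur in transcripts of other genes.

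**Figure D4:**
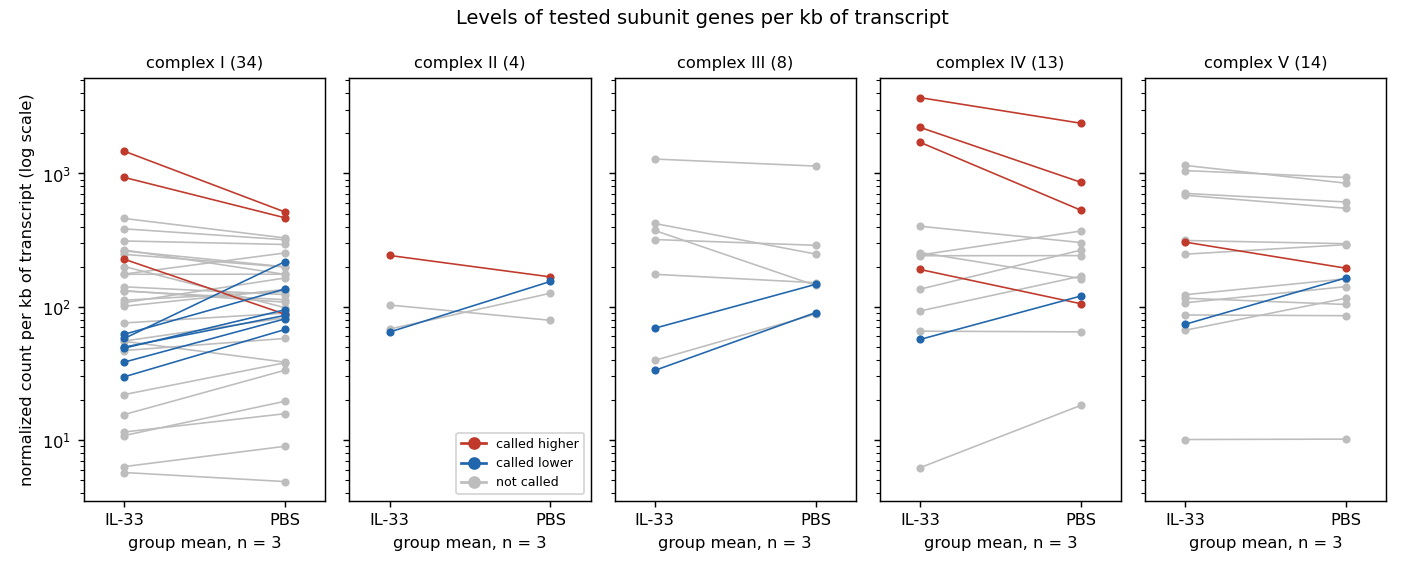
Mean normalized count per kb of transcript (log scale, n = 3 libraries a group) of the tested subunit genes in each complex (all but Atp5o, which has no annotated length here), IL-33 on the left and PBS on the right of each panel, with red lines for called higher, blue for called lower and grey for not called. In complex II the line of Sdha crosses those of Sdhc and Sdhd, and in complex IV the 3 genes of highest level, Cox4i1, Cox6b1 and Cox6a1, are all called higher.

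Log2 fold changes of these genes were correlated with the GC content of their transcripts. Called higher genes had a median GC content of 54.9%, called lower genes 51.3%, those not called 50.5% and all tested genes 50.5%. Across 79 genes of oxidative phosphorylation with a value, the Spearman correlation of log2 fold change with GC content was 0.39, and with transcript length −0.15. By library, the correlation with GC content was 0.15, 0.38 and 0.44 in IL-33 replicates 1, 2 and 3. Over 10429 tested genes it was 0.29, and by library 0.01, 0.30 and 0.40. Each PBS library set against the other PBS libraries gave 0.18, 0.02 and −0.22 over the 79 genes. These correlations run across genes that share libraries, and genes are not independent replicates. With the trend of GC content and length removed, 6 of the 9 higher genes and all 13 lower genes kept their call, and Atp5d, Cox4i1 and Sdhb lost it.

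**Figure D5:**
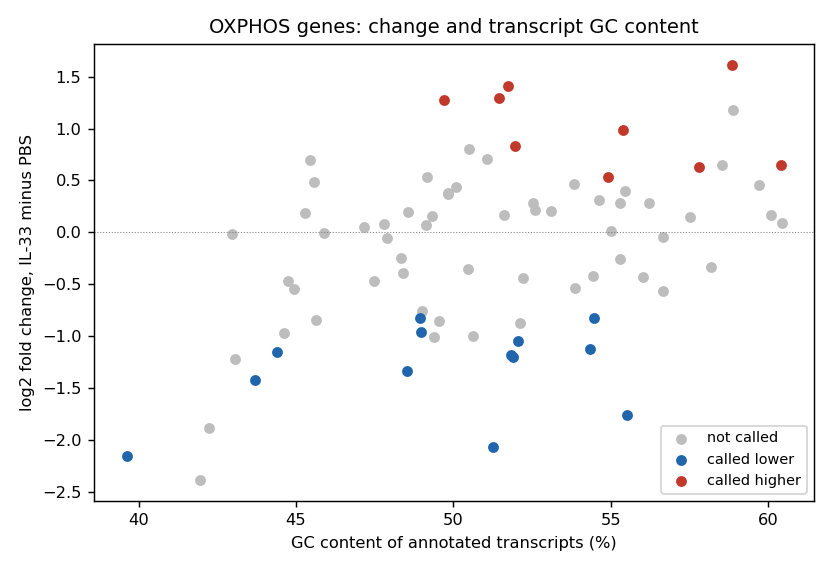
Log2 fold change (IL-33 minus PBS) against the GC content of annotated transcripts (percent) for the 79 tested genes with a value, with red for called higher, blue for called lower and grey for not called. The red points lie at 49.7% to 60.4% GC and the blue points at 39.6% to 55.5%, so that the ranges overlap. The blue point at 39.6% is Atp5s, which had to differ to be tested.

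Other genes of mitochondrial respiration, from lists drawn up by function, were also called in both directions. Over 188 tested genes in 9 lists, 24 were higher and 17 lower, where 17.4% of all tested genes were higher and 14.4% lower. Values in parentheses are log2 fold changes. Citrate synthase, the entry enzyme of the tricarboxylic acid cycle, rose: Cs was at 5126, 6951 and 8235 with IL-33 and 1921, 1789.8 and 1470.5 with PBS (log2 fold change 1.95, SE 0.21, adjusted p = 0.000751, limma), above PBS in all 3 libraries and called in each of the 6 fits that left out 1 library. Within that cycle and pyruvate dehydrogenase, 1 gene was higher and 3 lower of 18 tested, with a median of −0.31. The lower genes were Idh3g, an isocitrate dehydrogenase subunit (−1.07, SE 0.22, adjusted p = 0.0108, limma), Suclg1, of succinate-CoA ligase (−0.79, SE 0.19, adjusted p = 0.0165), and Fh1, fumarase (−1.09, SE 0.33, adjusted p = 0.0374). Complex II is also an enzyme of this cycle, with Sdha called lower and Sdhb called higher. Ubiquinone synthesis genes had 1 higher (Coq10b) and 2 lower (Coq4 and Coq9) of 12, with a median of −0.14.

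Assembly factors of complexes II to V had 6 genes higher and 1 lower of 24 tested, with a median of 0.34. Ttc19, a factor of complex III, was at 107, 115 and 129 with IL-33 and 52.8, 37.1 and 52.4 with PBS (log2 fold change 1.30, SE 0.23, adjusted p = 0.00584, limma), called in all 6 fits that left out 1 library. Cox18 (log2 fold change 1.31, SE 0.34, adjusted p = 0.0232, limma), which inserts a complex IV subunit into the membrane, and the copper chaperone Cox17 (1.17, SE 0.32, adjusted p = 0.027) were also higher, and Coa4 (−1.48, SE 0.36, adjusted p = 0.0174) was lower. Further complex I assembly factors had 0 higher (limma; 1 at an unadjusted p under 0.05, 0 with edgeR and 1 with DESeq2) and 2 lower of 7, Tmem126b (−2.57, SE 0.55, adjusted p = 0.0114, limma) and Tmem126a (−2.40, SE 0.75, adjusted p = 0.0423). Both of these passed the filter only through their PBS values, so that they had to differ to be tested, and Tmem126a was at 8, 0 and 1 reads with IL-33 and 13, 22 and 23 reads with PBS. Structural genes outside the naming pattern had 0 higher and 0 lower of 6 (limma; 2 and 0 at an unadjusted p under 0.05, 0 and 0 with edgeR, 1 and 0 with DESeq2), with Cyc1, cytochrome c1, at a log2 fold change of 0.72 and Cycs, cytochrome c, at 0.09. Carriers of nucleotides and phosphate had 0 higher (limma; 0 also at an unadjusted p under 0.05, with edgeR and with DESeq2) and 2 lower of 7, Slc25a5 (−0.80, SE 0.24, adjusted p = 0.0364, limma) and Vdac2 (−1.09, SE 0.34, adjusted p = 0.0409).

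Regulators of mitochondrial DNA expression and biogenesis had 3 genes higher and 0 lower of 13 tested (limma; 0 lower also at an unadjusted p under 0.05, with edgeR and with DESeq2), with a median of 0.10. Pprc1, a coactivator related to PGC-1, was at 519.7, 623 and 781 with IL-33 and 229, 133 and 131 with PBS (log2 fold change 1.99, SE 0.27, adjusted p = 0.00186, limma), called in all 6 fits that left out 1 library. Esrra, an orphan nuclear receptor of respiratory genes (log2 fold change 1.35, SE 0.29, adjusted p = 0.0113, limma), and Yy1 (1.15, SE 0.35, adjusted p = 0.0391) were also higher. Tfam (log2 fold change −0.02), Nrf1 (0.07) and Gabpa (−0.31), which binds the ETS motif, were not called. The mitochondrial ribosome and translation list had 6 higher and 6 lower of 76, with Mrpl38 (1.55), Mrps30 (1.14) and Mrpl54 (0.91) among the higher and Mtif2 (−1.33), Mrps16 (−1.44) and Mrps35 (−1.22) among the lower. Mitochondrial import had 7 higher and 1 lower of 25, with Tomm5 (1.04), Tomm22 (1.50) and Tomm70a (1.62) higher and Timm21 (−1.82) lower. Leaving out IL-33 replicate 1 gave 47 higher and 45 lower over the 9 lists, leaving out IL-33 replicate 2 gave 7 and 6, and leaving out IL-33 replicate 3 gave 12 and 13. Leaving out PBS replicate 1 gave 11 and 4, and leaving out PBS replicate 3 gave 3 and 1. Without PBS replicate 2 they were 7 and 0 (limma), with 25 and 17 at an unadjusted p under 0.05. Scaling to equal totals gave 2 higher and 92 lower, and the same without Rn45s 7 and 58.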

How the data were processed

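Each library had 1 deposited table of normalized counts per gene. Per the submitters' processing notes, the tools named were HISAT2, HTSeq and DESeq2 and the build mm10. Tool versions, annotation and how strand was counted are not given in those sources, so reads of overlapping and antisense genes may be shared. The deposited values are a signal made by the authors from counts, and they are whole multiples of 1 step in each library. Dividing by that step gave whole reads for 100% of values within 0.1 of a read, so relative depth was recovered; the precision it gives covers counting error only.

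From the deposited values, log2(value + 1) was tested with limma 3.58.1 in R 4.3.3 (trend and moderated variance) for genes at 10 or more in at least 3 of the 6 libraries. Benjamini-Hochberg adjustment ran over all 10544 such genes, and an adjusted p under 0.05 was called. Fold changes on this scale understate the change of low genes. Recovered reads were tested with edgeR 4.0.16 (1909 genes higher, 1479 lower) and DESeq2 1.42.0. The limma test, and not the other fits, was also run on simulated counts with 200 genes changed by known folds. Genes were matched by symbol to GENCODE vM21 on GRCm38 (22997 of 23420, of which 1260 through another symbol; 91 of the 92 genes of oxidative phosphorylation, all but Atp5o), which gave coordinates, length, GC content, exonic overlap with other genes and shared 50-base stretches. Promoter sequences are from RefSeq on GRCm38.p6.

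The alternatives were other pseudocounts (0.5, 5), filters (none, 50), scalings (TMM, quantile, equal totals with and without Rn45s), no variance trend, the replicate number as a block, removal of GC and length trends (splines with 5 degrees of freedom), IL-33 replicate 1 alone and leaving out each library. The fit with the Rn45s share as a covariate was one of these too. Named were all called genes, core catalytic subunits, the 3 highest and 3 lowest log2 fold changes of each complex, tissue isoforms, and up to 3 called genes per direction of each pathway list by p. The genes and lists were chosen with earlier results of these data known. Of 26 symbols sought for the mitochondrially encoded genes, 0 were found in the table, so those genes were not analysed here. The values of some genes under this rule are not reported here.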

Additional observations from a re-analysis of the deposited data

How the results depend on the processing

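Scaling to equal totals gave 264 genes higher and 5287 lower over all genes and, among the genes of oxidative phosphorylation, 0 higher, 41 lower and a median log2 fold change of −1.05. Without Rn45s in those totals the values were 951, 3570, 4, 27 and −0.43. Scaling to equal totals put 34 of the 39 genes with a positive log2 fold change below 0, where the median of all genes was −1.06. The 10 of these that were called in either fit were Atp5a1 (−0.82), Atp5d (−0.39), Atp5f1 (−0.97), Cox4i1 (−0.41), Cox5b (−0.20), Ndufa13 (−0.95), Ndufb9 (−0.054), Ndufs7 (−0.87), Sdhb (−0.50) and Uqcrc1 (−0.90). The Rn45s share as a covariate left 914 genes higher and 642 lower over all genes, with 2 and 0 among the genes of oxidative phosphorylation. Those called lower numbered 8 with no filter, 8 with no variance trend and 8 with IL-33 replicate 1 alone. The median was 0.093 with the filter at 50 and −0.13 with the GC and length trend removed. Leaving out 1 library at a time gave 695 to 2910 higher and 318 to 2950 lower over all genes, and 1 to 21 higher and 0 to 24 lower among the genes of oxidative phosphorylation. The cause was not tested. The 22 calls were in the same direction wherever they were made again, under each of the settings run.

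The replicate numbers are shared between the groups, and whether they pair samples is not stated. Deviations of same-numbered libraries from their group means had correlations of 0.046, 0.24 and −0.16 for numbers 1, 2 and 3. With 3 libraries a group, these values cannot decide whether the libraries are paired. With the replicate block, 8 genes of oxidative phosphorylation were higher and 11 lower, of 1620 and 1298 over all genes. With the replicate block and the GC and length trend removed they were 7 and 12, with a median of −0.13. Low genes rest on few reads, 1 or 2 in each IL-33 library for Atp5s, and their fold changes are the least certain.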
